A study of Mus musculus with 9 samples.

Results

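Transcripts of 10 genes that divide or join mitochondria were followed in the ventral midbrain of mice carrying 0, 1 or 2 floxed copies of Dot1l, which Cre can delete in dopamine neurons. Members were taken by gene symbol, and all 10 were found among the 47729 gene rows of the deposited tables. The fission genes were Dnm1l, Fis1, Mff, Mief1 and Mief2. Grouped as fusion genes were Mfn1, Mfn2, Opa1 and the proteases of Opa1, Oma1 and Yme1l1. Each of them was among the 17671 genes that passed the filter on low counts.

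Mitochondria in neurons are cut by the dynamin-like GTPase Drp1, the product of Dnm1l, which is recruited from the cytosol by receptors on the outer membrane. They are joined by mitofusins on the outer membrane and by Opa1 on the inner membrane, and the balance of both activities sets whether a cell holds short or elongated mitochondria. Dopamine neurons carry long, highly branched axons filled with mitochondria, and genes acting on mitochondrial quality are mutated in familial forms of parkinsonism. Dot1l is the methyltransferase of lysine 79 of histone H3, a mark found over the bodies of transcribed genes.

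The animals were 180 days old, on a C57/Bl6 background, and every one carried Pitx3-Cre/+, which drives recombination in midbrain dopamine neurons, and the Rosa-lox-stop-lox-Yfp reporter. Controls were Dot1l(+/+), heterozygotes carried 1 floxed copy, Dot1l(fl/+), and homozygotes 2, Dot1l(fl/fl). There were 9 libraries, 3 per genotype, and per the study's methods each was made from the pooled tissue of 3 animals. The labels describe the material as dissected midbrain dopamine neurons, whereas summed markers of oligodendrocytes (10052 to 11516 CPM, counts scaled to a library of 1000000) and astrocytes (3127 to 3816 CPM) stood far above those of dopamine neurons (464 to 679 CPM). The libraries thus hold RNA of cells in which Cre does not act, and the portion of a member's counts that came from dopamine neurons was not measured. In such bulk tissue, fewer cells of a type and less RNA per cell cannot be told apart.

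Library totals ran from 16422135 to 28403218 gene counts (median 25414332), and the 10 members together received 24570 to 40864 of them. The lowest count of any member in any library was 131, for Oma1. Dot1l itself was at 85.2, 80.2 and 85.1 CPM in the 3 controls, 84.2, 60.6 and 75.6 CPM in heterozygotes, and 82.1, 73.9 and 82.9 CPM in homozygotes. The genotypes overlapped, and counts summed over the whole gene do not measure loss of the floxed exon. Dopamine neuron markers summed to 616 to 679 CPM in controls, 478 to 624 CPM in heterozygotes and 464 to 495 CPM in homozygotes. Choroid plexus markers summed to 57.2 to 143 CPM, 104 to 569 CPM and 29.9 to 38.1 CPM in the same order, and the highest value belonged to Dot1l(fl/+) replicate 3. Dot1l(fl/+) replicate 2 stood apart from its own genotype: the chi-square of its gene counts per degree of freedom was 15.0 against replicate 1 and 16.3 against replicate 3, whereas the other pairs of libraries within a genotype gave 4.34 to 8.14.

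Per kilobase of annotated exon, Dnm1l was the most abundant member, with a mean over all 9 libraries of 76.4 CPM per kb. Fis1, a small tail-anchored outer membrane protein, followed at 50.9 CPM per kb, and Mfn2, which also tethers mitochondria to the endoplasmic reticulum, at 43.9 CPM per kb. The ranges over libraries of Fis1 (44.6 to 59.2 CPM per kb) and Mfn2 (40.9 to 46.9 CPM per kb) overlapped. Within each library Fis1 stood above Mfn2. Opa1, the inner membrane GTPase, stood at 32.0 CPM per kb, clear of its neighbours. Mfn1 (20.6 CPM per kb) and Mff (19.9 CPM per kb), the latter a receptor for Drp1, overlapped again.

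Yme1l1, an inner membrane protease that cleaves Opa1, was at 15.9 CPM per kb. The remaining members were scarce. Mief2 and Mief1, which encode the adaptors MiD49 and MiD51 that hold Drp1 on the outer membrane, were at 5.93 and 4.03 CPM per kb, and Oma1, the stress-activated protease of Opa1, was at 3.16 CPM per kb. Among the paired paralogs, the level of Mfn2 per kilobase was 2.00 to 2.28 times that of Mfn1 across the libraries. Per kilobase, Mief2 exceeded Mief1 in every library, with Mief1 over Mief2 between 0.565 and 0.835. These levels divide by the union of all annotated exons. Genes with long alternative exons, such as Mff with 9757 bases, are placed low by that choice. Mief1, with 8106 bases against 2716 for Mief2, had the higher CPM before that division, with means of 32.6 against 16.1. Another annotated gene overlaps 5 of the members. For Mff, Mief2 and Mfn2 the counts of these neighbours reached at most 0.692% of the member's own. The neighbours of Dnm1l and Mief1 have no row in the count data, so no such share could be given.

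The members were steady between replicates. The within-genotype coefficient of variation was 2.60% for Mfn1, 2.75% for Opa1 and 3.06% for Dnm1l. Fis1 (7.57%), Mief2 (8.22%) and Oma1 (11.1%) varied most. The median over the 10 members was 5.04%, beside 8.75% over all genes tested and 6.67% over tested genes between 5 and 500 CPM. Across all 9 libraries the highest value of a member was 1.08 times its lowest for Mfn1 and 1.41 times for Mief2, the ends of the range.

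**Figure D1:**
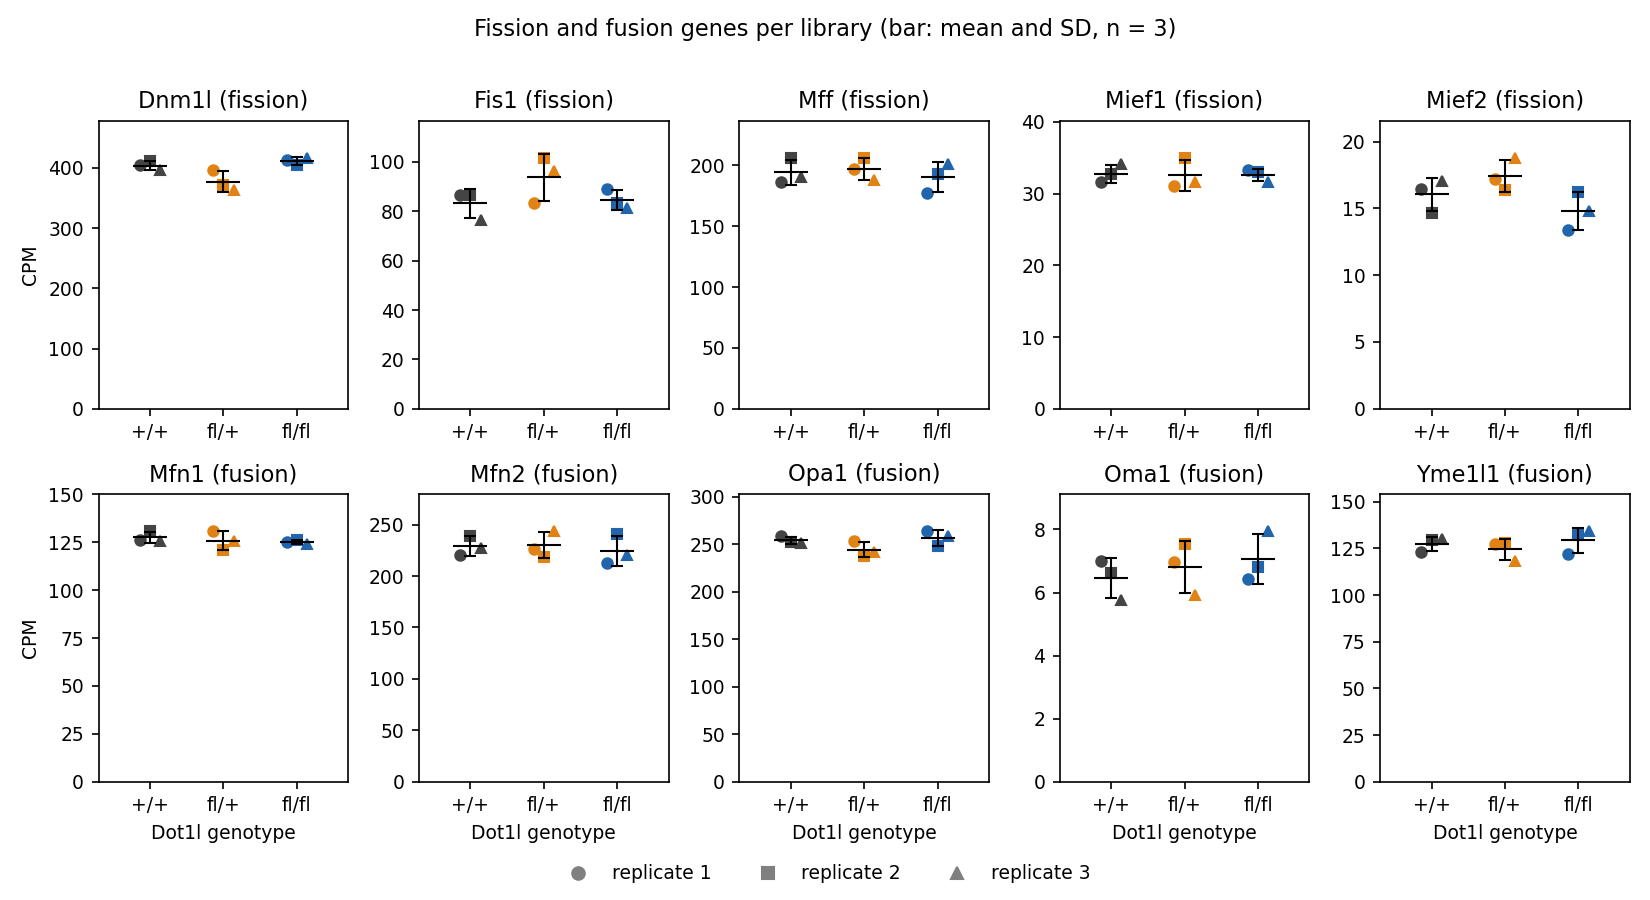
CPM of the 5 fission genes (upper row) and the 5 fusion genes (lower row) in each library, with one panel per gene, the y axis starting at 0 and bars for the mean and SD of 3 libraries. Genotypes overlap in every panel except that Dnm1l is higher and Mief2 is lower in all Dot1l(fl/fl) libraries than in all Dot1l(fl/+) libraries.

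The first question was whether losing 1 copy of Dot1l moved these genes. In edgeR's quasi-likelihood test with Benjamini-Hochberg adjustment, 0 of the 10 members and 0 of 17671 genes passed an adjusted p of 0.05, a background of 0% called. At an unadjusted p under 0.05, 1483 genes differed (8.39% of those tested), and 1 of the 10 members, Fis1, was among them. DESeq2 on all libraries called 3 genes at an adjusted p of 0.05 and 0 members. No member had 3 Dot1l(fl/+) libraries all above or all below the 3 controls, whereas 13.3% of all tested genes did.

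Fis1 (ENSMUSG00000019054, chromosome 5, 136953275 to 136966234, plus strand, GRCm38) was at 86.4, 86.7 and 76.5 CPM in controls and at 83.3, 102 and 96.4 CPM in heterozygotes. Replicates 2 and 3 of the heterozygotes exceeded every control, while replicate 1 lay among the controls. The mean was 93.7 ± 9.39 CPM against 83.2 ± 5.81 CPM (SD, n = 3), a log2 fold change of 0.17 ± 0.075 (SE), or 12.8% higher with a 95% confidence interval of 0.878% to 26.1%. The edgeR p was 0.0365 before and 0.569 after adjustment over all genes. The study singled out Fis1 from these same libraries, so its direction here is not independent evidence.

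That difference rested on few libraries. Without heterozygote replicate 2, the library that stood apart, the log2 fold change was 0.11 (edgeR unadjusted p = 0.150). Without heterozygote replicate 3 it was 0.15 (edgeR unadjusted p = 0.0934), and without control replicate 3 it was 0.12 (edgeR unadjusted p = 0.160). Leaving out heterozygote replicate 1 raised it to 0.25 (edgeR unadjusted p = 0.00312, adjusted p = 0.197). The estimate stayed above 0 in all 18 alternative settings and was under an unadjusted p of 0.05 in 12 of them, with adjusted p-values from 0.197 to 1 in edgeR and DESeq2.

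Gene length moved with the same comparison. Fis1 has 1714 bases of annotated exon and falls in the shortest of 5 equal length classes, whose median log2 fold change in heterozygotes was 0.079. The longest class had a median of -0.044, and Mff, Mief1, Opa1 and Yme1l1 belong to it. With an offset for length and GC content, Fis1 had a log2 fold change of 0.11 (edgeR unadjusted p = 0.131). Choroid plexus markers were at 104, 167 and 569 CPM in heterozygote replicates 1, 2 and 3. In control replicates 1, 2 and 3 they were at 143, 57.2 and 133 CPM. Of all libraries, Fis1 was highest in heterozygote replicate 2 and lowest in control replicate 3. The part of library composition in the Fis1 value was not tested.

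Dnm1l (ENSMUSG00000022789, chromosome 16, 16312230 to 16358959, minus strand) was at 404, 411 and 396 CPM in controls and 397, 372 and 363 CPM in heterozygotes. Of the heterozygotes, replicate 1 reached into the control range and the other libraries lay below it. The log2 fold change was -0.10 ± 0.050 (edgeR unadjusted p = 0.0721, adjusted p = 0.622), with an interval of -13.3% to 0.705%. Under the length and GC offset it was -0.015 (edgeR unadjusted p = 0.743), and without heterozygote replicate 1 it was -0.14 (edgeR unadjusted p = 0.0231). Fis1 and Dnm1l had estimates of opposite sign, and their ratio, taken per kilobase after the values were seen and not tested, set heterozygote replicates 2 and 3 apart, at values of 0.828 and 0.807 beside 0.637 in replicate 1, 0.587 to 0.649 in controls and 0.593 to 0.654 in homozygotes.

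The other 3 fission genes, receptors and adaptors of Drp1, were not under the unadjusted threshold. Mff had a log2 fold change of 0.020 (-7.24% to 10.8%), Mief1 of -0.010 (-10.3% to 9.91%) and Mief2 of 0.12 (-6.63% to 26.5%). Mff depended on the setting: with the length and GC offset it was higher in heterozygotes by 0.16 on the log2 scale (edgeR unadjusted p = 0.00897, adjusted p = 0.705), and was then the one member under the unadjusted threshold. Its adjusted p ran from 0.482 to 1 over the alternatives. Estimates of the fusion genes ran from -3.94% to 5.75%. Mfn1 stood at -1.33% (-7.95% to 5.78%), Mfn2 at 0.262% (-8.35% to 9.69%) and Opa1 at -3.94% (-10.5% to 3.13%). Yme1l1 was at -2.38% (-9.92% to 5.79%), and Oma1 had the widest interval, -13.2% to 28.8%.

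The second question was whether losing both copies did so. No member was under an unadjusted p of 0.05 in Dot1l(fl/fl) against Dot1l(+/+) in edgeR, while 694 genes (3.93%) were. At an adjusted p of 0.05, 0 members and 0% of genes were called by edgeR, and DESeq2 on all libraries called 3 genes and 0 members. Libraries of these genotypes were fully separated for 0 members and for 10.3% of all genes. Fis1 was at 89.2, 83.4 and 81.3 CPM in homozygotes, within the control range apart from replicate 1, and the log2 fold change was 0.026 (-8.97% to 13.9%).

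Dnm1l was at 414, 404 and 416 CPM in homozygotes, a log2 fold change of 0.027 from the controls (-5.49% to 9.81%). The lowest p among members belonged to Mief2, at 13.4, 16.2 and 14.8 CPM against 16.5, 14.6 and 17.1 CPM in the controls (log2 fold change -0.12, edgeR unadjusted p = 0.271). Mff stood at -1.91% (-10.3% to 7.24%) and Mief1 at -0.408% (-10.1% to 10.4%). Among fusion genes Oma1 had the estimate farthest from 0 and the widest interval, 9.07% (-10.7% to 33.2%), with 6.44, 6.80 and 7.95 CPM against 7.00, 6.61 and 5.75 CPM in the controls. Mfn1 (-8.47% to 5.24%), Mfn2 (-10.4% to 7.26%), Opa1 (-5.95% to 8.42%) and Yme1l1 (-6.45% to 9.93%) had narrower intervals. In these libraries the summed dopamine neuron markers lay below every control, whereas no member had its homozygote libraries all below or all above the controls.

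The third comparison set Dot1l(fl/fl) against Dot1l(fl/+), and it shares its libraries with both of the others. At an unadjusted p under 0.05 edgeR listed 1145 genes (6.48%), and 2 members were among them. At an adjusted p of 0.05 it called 0 members and 0% of genes, and DESeq2 on all libraries called 14 genes and 0 members. The same 2 members had libraries that did not overlap between the genotypes, as did 11.1% of all genes. Dnm1l was higher in Dot1l(fl/fl), with a log2 fold change of 0.12 ± 0.050 (1.16% to 17.5%, edgeR unadjusted p = 0.0270, adjusted p = 0.733).

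Mief2 (ENSMUSG00000018599, chromosome 11, 60728398 to 60732951, plus strand) was at 17.2, 16.4 and 18.8 CPM in heterozygotes and lower in every homozygote library. The log2 fold change was -0.24 ± 0.10 (-27.3% to -1.22%, edgeR unadjusted p = 0.0363, adjusted p = 0.745). Fis1 had -0.15 (edgeR unadjusted p = 0.0703). For Dnm1l the unadjusted p rose above 0.05 without heterozygote replicate 3 (0.103), homozygote replicate 1 (0.0659) or homozygote replicate 3 (0.0771). For Mief2 it did so without heterozygote replicate 1 (0.0510) or 3 (0.130) and without homozygote replicate 1 (0.143) or 3 (0.0662). With the length and GC offset the log2 fold change of Dnm1l was 0.050 (edgeR unadjusted p = 0.286) and that of Mief2 was -0.19 (edgeR unadjusted p = 0.0721), while Mff was at -0.15 (edgeR unadjusted p = 0.0144).

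**Figure D2:**
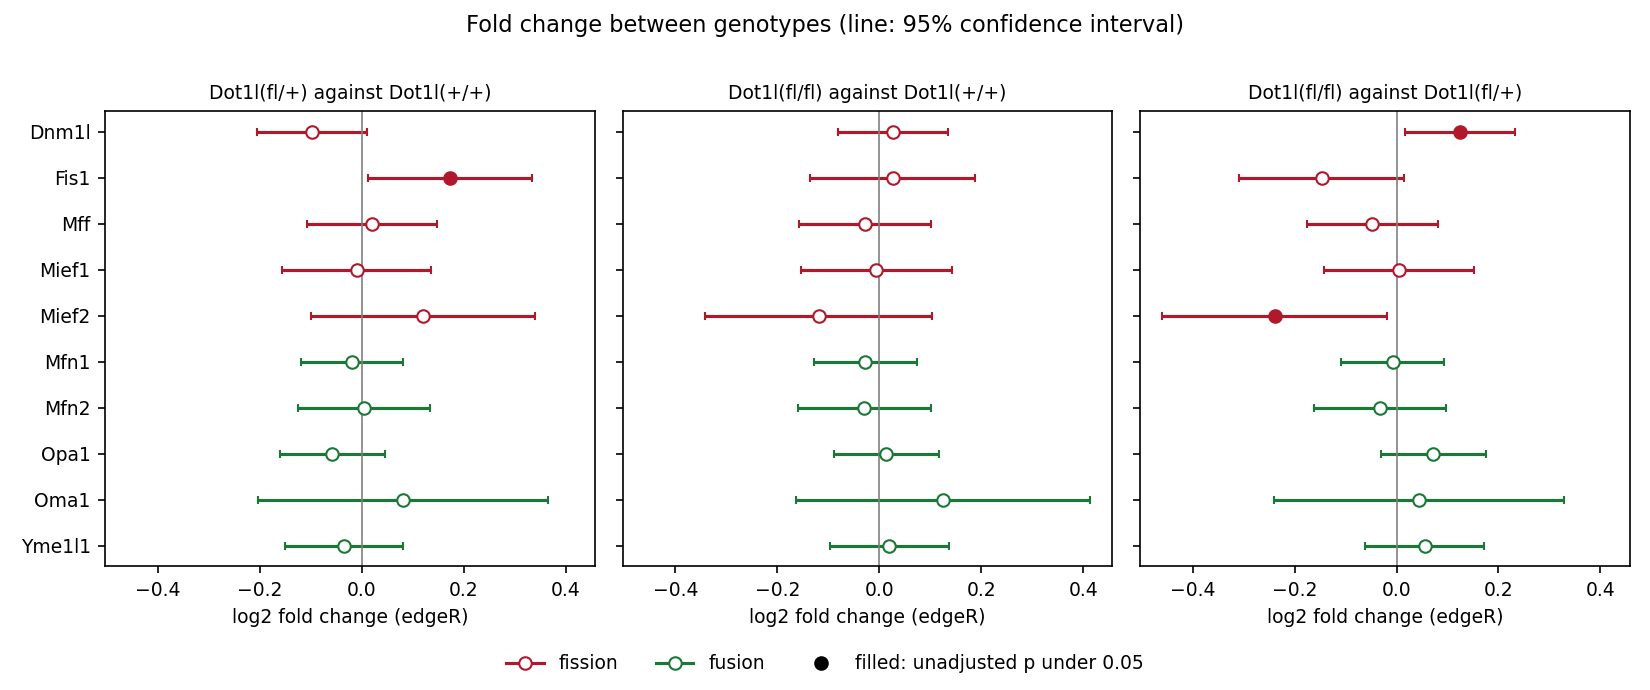
Log2 fold change of each member (fission red, fusion green) from the edgeR fit on all 9 libraries, with 95% confidence intervals, for the 3 comparisons of genotypes. Filled points mark an unadjusted p under 0.05, which were Fis1 in Dot1l(fl/+) against Dot1l(+/+), and Dnm1l and Mief2 in Dot1l(fl/fl) against Dot1l(fl/+).

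The sequences before the start sites of those 3 genes are shown because the unadjusted differences concern them. Each is the 250 bases upstream of a RefSeq start (GRCm38.p6), written from 5′ to 3′ on the gene's strand, at chr5:136953025-136953274 for Fis1, chr16:16359032-16359281 for Dnm1l and chr11:60728148-60728397 for Mief2. Capitals mark matches to the motifs named after them.
Fis1: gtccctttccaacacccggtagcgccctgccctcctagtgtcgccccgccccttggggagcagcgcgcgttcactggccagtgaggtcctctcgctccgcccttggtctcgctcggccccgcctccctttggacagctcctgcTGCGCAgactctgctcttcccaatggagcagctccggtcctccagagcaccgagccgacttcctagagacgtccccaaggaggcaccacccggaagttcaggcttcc
Dnm1l: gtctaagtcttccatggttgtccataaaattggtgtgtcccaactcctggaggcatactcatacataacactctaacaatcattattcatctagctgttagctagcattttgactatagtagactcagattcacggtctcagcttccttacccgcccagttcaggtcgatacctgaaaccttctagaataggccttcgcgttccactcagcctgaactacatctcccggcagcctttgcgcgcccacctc
Mief2: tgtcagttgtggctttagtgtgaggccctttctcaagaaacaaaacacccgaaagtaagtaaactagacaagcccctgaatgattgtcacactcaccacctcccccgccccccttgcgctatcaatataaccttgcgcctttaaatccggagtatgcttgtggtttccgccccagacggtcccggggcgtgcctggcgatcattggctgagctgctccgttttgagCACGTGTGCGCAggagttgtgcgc

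The windows were searched on both strands for TGCGCA, the core of sites of NRF1, a transcription factor of nuclear genes for mitochondria, and for CACGTG, the E-box read by several transcription factors. Both motifs read the same on either strand, and no matches to them overlapped. RefSeq gave 15 such windows for the 10 members. TGCGCA occurred in 3 of them, those of Mief2 and Opa1 and 1 of the 2 windows of Fis1, and in 6.43% of all 32851 windows. CACGTG occurred in 1 of them, that of Mief2, directly before the TGCGCA, and in 6.02% of all windows. A match of 6 letters is a description of the sequence and no evidence that a factor binds. The Fis1 window shown is 66.8% GC, the Mief2 window 54.4% and this Dnm1l window 47.6%. A second Fis1 start lies behind a window of 52.0% GC without TGCGCA, and a second Dnm1l start behind one of 70.8% GC. Over all windows the median was 52.4%.

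Setting fission against fusion as groups, the summed level of the 5 fission genes was 156 ± 4.80 CPM per kb in controls, 158 ± 3.79 in heterozygotes and 157 ± 1.31 in homozygotes (SD, n = 3). Fusion genes summed to 116 ± 2.28, 115 ± 2.55 and 116 ± 2.53 CPM per kb. Fission over fusion was therefore 1.37, 1.35 and 1.31 in controls, 1.33, 1.45 and 1.35 in heterozygotes, and 1.40, 1.32 and 1.36 in homozygotes. The genotypes overlapped, and heterozygote replicate 2 gave the highest ratio. Dnm1l makes up about as much of the fission sum as the other members of that group together, so the sum follows it closely. The fusion group holds Oma1 and Yme1l1, proteases that cleave Opa1, so its sum is not a measure of fusion activity.

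By fold change, the median of the fission genes was 0.020 and that of the fusion genes -0.019 in Dot1l(fl/+) against Dot1l(+/+), on the log2 scale, beside -0.0034 over all genes. In Dot1l(fl/fl) against Dot1l(+/+) the medians were -0.0059 and 0.014, beside 0.00090 over all genes. In Dot1l(fl/fl) against Dot1l(fl/+) they were -0.048 and 0.044, beside 0.0015. The median absolute log2 fold change of the 10 members was 0.046, 0.027 and 0.051 in these comparisons, below the 0.090, 0.070 and 0.084 of all genes tested. With the length and GC offset both medians had the same sign in each comparison, at 0.083 and 0.019, 0.013 and 0.023, and -0.093 and -0.031 for fission and fusion genes in that order. These medians are a description, with no test.

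**Figure D3:**
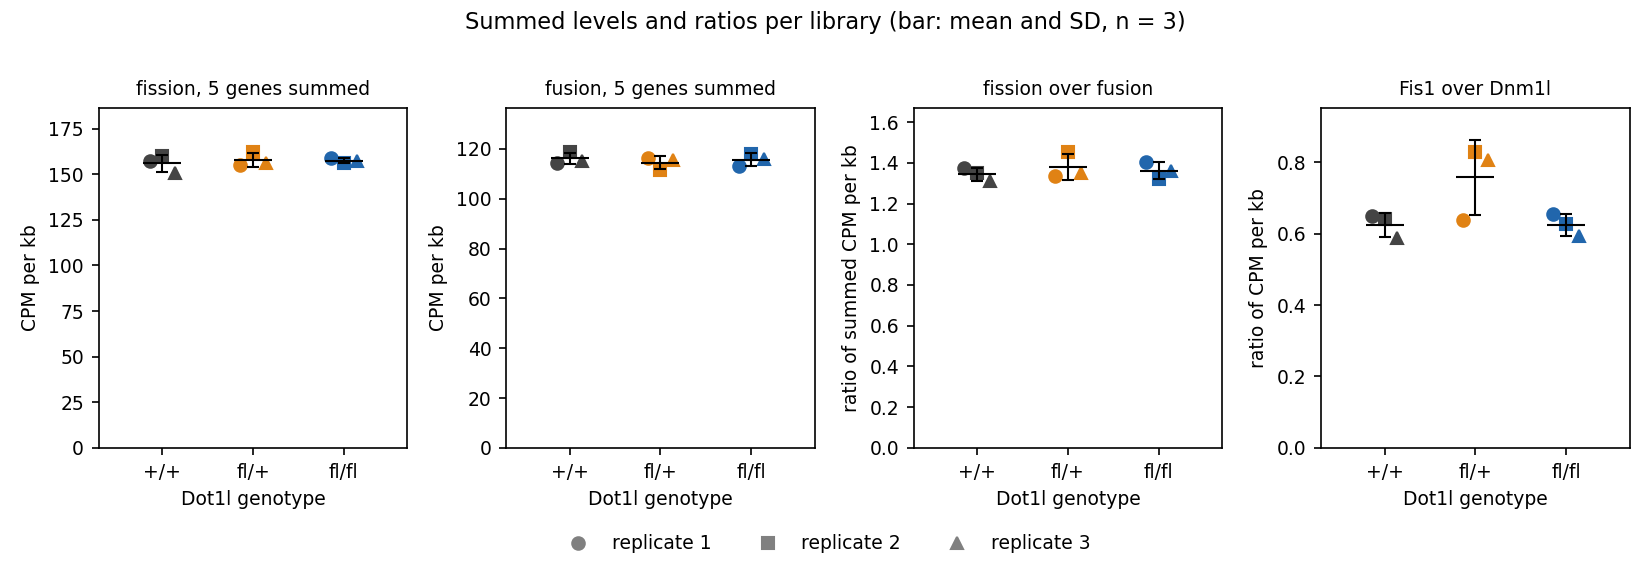
Summed CPM per kb of the fission and of the fusion genes, the ratio of both sums, and the ratio of Fis1 to Dnm1l, per library, on axes from 0 with the mean and SD of 3 libraries. The sums and their ratio overlap between genotypes, while Fis1 over Dnm1l is highest in replicates 2 and 3 of Dot1l(fl/+).

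The 47 other genes of mitochondrial shape, turnover and transport place the members in their pathway, and all 47 were tested. At an unadjusted edgeR p under 0.05, 5 were higher and 1 lower in heterozygotes than in controls, 1 and 1 in homozygotes than in controls, and 3 and 1 in homozygotes than in heterozygotes. Of all genes tested, 8.39%, 3.93% and 6.48% were under that threshold in the same order. None had an adjusted p under 0.05 in edgeR. Of the 16 further fission genes, 0 were under the unadjusted threshold in heterozygotes. Leaving out single libraries gave 0 to 3, with 3 lower without heterozygote replicate 2 and 1 higher and 2 lower without heterozygote replicate 1, and 1 was higher without the filter and with the replicate block and the length and GC offset together. Mtfr2, a fission regulator, had 0.213 CPM in homozygotes against 0.551 CPM in controls, a level of few counts (log2 fold change -1.28, edgeR unadjusted p = 0.0141). It was not under the threshold without control replicate 2 (edgeR unadjusted p = 0.0669) or with DESeq2 on 2 genotypes (DESeq2 unadjusted p = 0.0656), and it did not pass a filter of 10 counts in every library. Gdap1 and Slc25a46, outer membrane proteins tied to mitochondrial shape, had higher estimates in homozygotes than in heterozygotes, with log2 fold changes of 0.12 (edgeR unadjusted p = 0.0250) and 0.13 (edgeR unadjusted p = 0.0268). With the length and GC offset these were 0.043 and 0.050 (edgeR unadjusted p = 0.306 and edgeR unadjusted p = 0.336), and neither was under the threshold in fits of 2 genotypes, without Dot1l(fl/+) replicate 3 or without Dot1l(fl/fl) replicate 1. Gdap1 was also not under it without the filter or without Dot1l(fl/fl) replicate 2, nor was Slc25a46 without Dot1l(fl/+) replicate 2.

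Among 13 further fusion genes, the prohibitin Phb had a log2 fold change of -0.21 in heterozygotes (edgeR unadjusted p = 0.0262). It was not under the threshold without control replicate 1 (edgeR unadjusted p = 0.0573), control replicate 2 (edgeR unadjusted p = 0.0782) or heterozygote replicate 2 (edgeR unadjusted p = 0.0536). Pink1, the kinase that marks damaged mitochondria for removal, was at 305 CPM in heterozygotes against 274 CPM in controls and 266 CPM in homozygotes. Its log2 fold change was 0.15 in heterozygotes against controls (edgeR unadjusted p = 0.0333) and -0.19 in homozygotes against heterozygotes (edgeR unadjusted p = 0.00936). The first of these was 0.11 with the length and GC offset (edgeR unadjusted p = 0.0839), and it was also not under the threshold without replicate 1 or 3 of the controls (edgeR unadjusted p = 0.0927 and edgeR unadjusted p = 0.0663) or without replicate 2 or 3 of the heterozygotes (edgeR unadjusted p = 0.0739 and edgeR unadjusted p = 0.115). The second was not under it without Dot1l(fl/fl) replicate 3 (edgeR unadjusted p = 0.0543). The study also singled out Pink1 from these libraries. The other 3 genes of that set, ubiquitin ligases of the outer membrane pathway, and the 6 transport genes had none under the threshold.

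The set listed for MICOS, the complex that shapes the junctions of the cristae, held 8 genes, among them Samm50, which is not a subunit. In Dot1l(fl/+), 8.39% of all genes were under an unadjusted edgeR p of 0.05 in either direction. Of the 8 listed, 4 were under it, all higher. They were Apool (log2 fold change 0.46), 2410015M20Rik, the gene of subunit Mic13 (0.26), Chchd6 (0.24) and Minos1 (0.19), and the median of the 8 was 0.15. With the length and GC offset 4 were also under the threshold, and leaving out single libraries gave 1 to 5. In the 3 heterozygote libraries Chchd6 was at 23.9, 31.6 and 31.3 CPM, against 23.2 to 25.8 CPM in controls. Minos1 was at 67.4, 83.1 and 77.0 CPM, against 64.2 to 69.7 CPM in controls. For both genes replicates 2 and 3 stood above every control and replicate 1 lay among them. Apool was at 5.21, 4.49 and 4.58 CPM in heterozygotes, against 3.08 to 4.17 CPM in controls, and 2410015M20Rik at 25.7, 31.8 and 28.5 CPM, against 23.2 to 25.1 CPM. For these genes all 3 heterozygote libraries stood above every control, as in one direction or the other for 13.3% of all genes. Without heterozygote replicate 2, 1 of the 8 was under the threshold and the median was 0.12. In homozygotes the estimates of all 8 were above 0, with a median of 0.083, and 1 was under the threshold. Without control replicate 3, 6 of the 8 were above 0 with a median of 0.052, and without homozygote replicate 3 the median was 0.14. Against heterozygotes, 7 of the 8 had estimates below 0 in homozygotes, with a median of -0.088, which was -0.048 without heterozygote replicate 2, when 5 were below 0. Choroid plexus markers summed to 104, 167 and 569 CPM in the 3 heterozygote libraries and to 57.2 to 143 CPM in controls. Of the 6 oligodendrocyte markers, Mog and Cnp were higher in heterozygotes at an unadjusted edgeR p under 0.05. The part of these markers in the MICOS values was not tested. Apoo was the exception in sign, at -0.10 in heterozygotes and 0.40 in homozygotes against the controls (edgeR unadjusted p = 0.0442), with means of 1.64 to 2.33 CPM in the 3 genotypes. That gene in homozygotes was not under the threshold with the replicate block (edgeR unadjusted p = 0.0564), the length and GC offset (edgeR unadjusted p = 0.0580), no filter, either fit of 2 genotypes or DESeq2 on all libraries (DESeq2 unadjusted p = 0.141), nor when any 1 control or homozygote library was left out, with edgeR unadjusted p-values of 0.0524 to 0.128. Against heterozygotes Apoo had a log2 fold change of 0.50 in homozygotes (edgeR unadjusted p = 0.0152, adjusted p = 0.726), and all 3 homozygote libraries stood above the heterozygotes. It was not under the threshold there with DESeq2 on all libraries (DESeq2 unadjusted p = 0.0650) or on 2 genotypes (DESeq2 unadjusted p = 0.0999). Apool, too, was scarce, at 4.76 against 3.46 CPM.

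**Figure D4:**
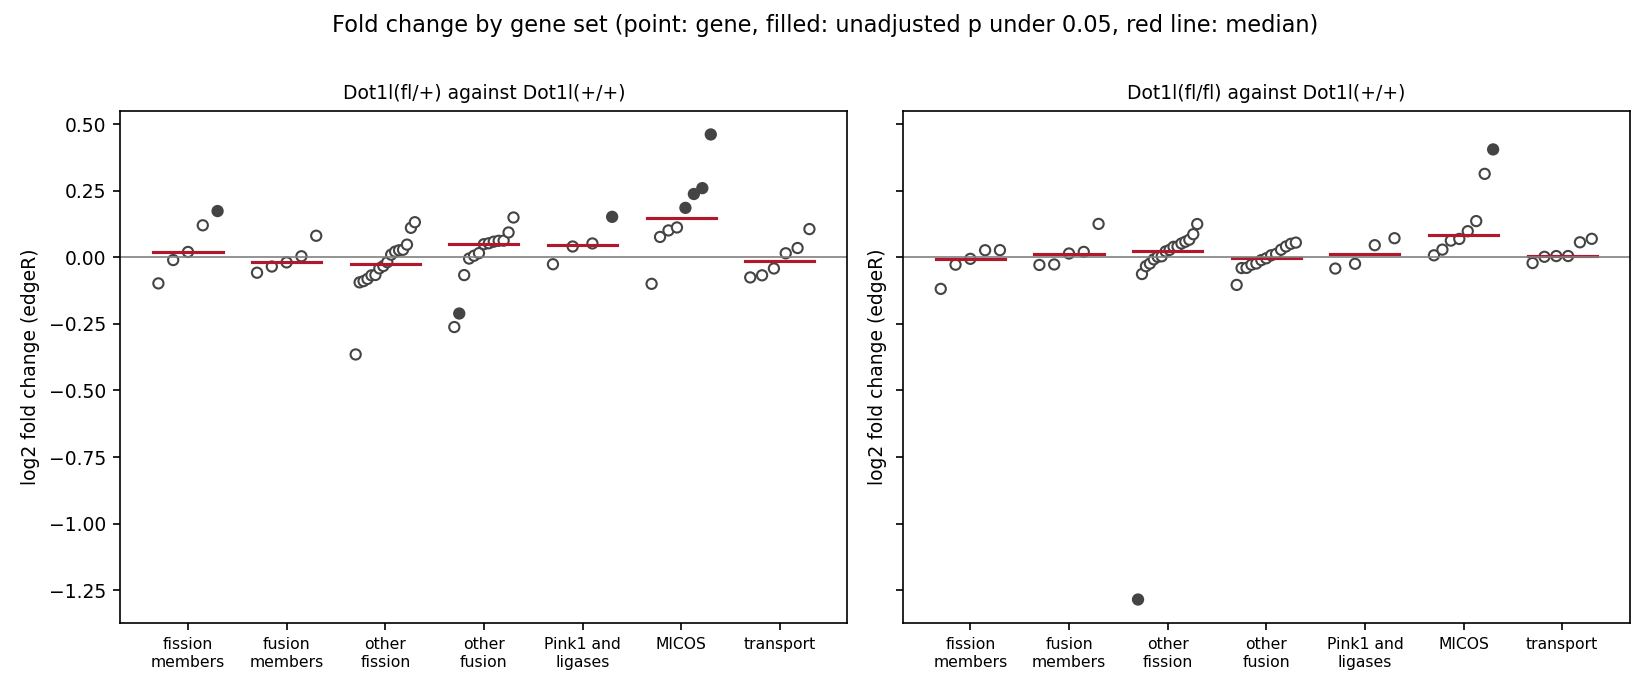
Log2 fold change of each gene, grouped by set, in heterozygotes (left) and homozygotes (right) against controls, with red lines at the set medians and filled points for an unadjusted p under 0.05. The fission and fusion members lie between -0.12 and 0.17 in both panels. The set listed for MICOS has the highest medians (0.15 and 0.083), and the lowest point is Mtfr2.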

How the data were processed

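Ventral midbrain RNA of 9 pools, 3 per Dot1l genotype, was sequenced by the study after directional library preparation. The authors deposited raw read counts per Ensembl gene for each library. Per the submitters' processing notes bcl2fastq 2.17, Trimmomatic 0.30, DESeq2 1.10.1 and build GRCm38.p4 were used. The aligner, counter, annotation release and strand setting are not given in the sources used here, so reads of overlapping genes may be shared. Tables of the authors' own comparisons, which hold fold changes and p-values, were not used.

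Groups followed the genotype labels. Members and gene lists were chosen with earlier results of these data known. Named were all 10 members, Dot1l and any other listed gene with an unadjusted p under 0.05 in some comparison. Genes were filtered by filterByExpr, scaled by TMM and tested over all 9 libraries with edgeR 4.0.16 (quasi-likelihood, genotype only, Benjamini-Hochberg over 17671 genes, R 4.3.3). CPM are TMM-scaled counts, and CPM per kb divide by the union of exons in GENCODE, which matched 47310 of 47729 rows. The script was tested on simulated data. Alternatives were DESeq2 1.42.0, other filters and scaling, a spline offset for length and GC content, a replicate block, fits to 2 genotypes and leaving out single libraries. Errors within a genotype come from pools labelled as separate samples. Promoter windows are from RefSeq.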

Additional observations from a re-analysis of the deposited data

How the results depend on the processing

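Adjusted calls over all genes, 0 in each comparison, became 3, 3 and 14 with DESeq2 on all libraries, 45, 8 and 13 with DESeq2 on 2 genotypes, and 251, 118 and 164 without the filter (heterozygotes against controls, homozygotes against controls, homozygotes against heterozygotes). With edgeR on 2 genotypes they were 1, 4 and 0. Leaving out single libraries gave 0 to 5, 0 to 4 and 0 to 12. No member was called in any of these. Members under an unadjusted p of 0.05 in heterozygotes against controls went from 1 to 0 with edgeR on 2 genotypes and to 0 to 2 without single libraries. In homozygotes against heterozygotes they went from 2 to 1 with the length and GC offset and with DESeq2 on 2 genotypes, to 3 without the filter, where Fis1 joined Dnm1l and Mief2, and to 0 to 2 without single libraries. The cause was not tested.

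Replicate numbers are shared between genotypes, and the study's methods describe pools built from matched sets of the genotypes, with no source tying a number to a set. Libraries of the same number correlated in their deviations from the genotype means at 0.022 to 0.317, with 6 of 9 pairs over 0.1, and 15 of 18 library and genotype combinations correlated best with their own number. With the replicate block, adjusted calls were 0, 3 and 3, and with the block and the length and GC offset 0, 3 and 4. The block left the number of members under the unadjusted threshold at 1, 0 and 2, and with the offset added that number was 1 in the third comparison. In heterozygotes against controls the block gave Dnm1l an edgeR unadjusted p = 0.0662 and Mief2 an edgeR unadjusted p = 0.244. With the offset, with or without the block, the 1 member under the threshold in the first and in the third comparison was Mff and not Fis1, Dnm1l or Mief2.

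Signs of estimates near 0 depended on the setting. In heterozygotes against controls, the length and GC offset (in brackets, with the replicate block) turned the log2 fold changes of Mfn1 to 0.019 (0.019), Mief1 to 0.013 (0.011), Opa1 to 0.0044 (0.0046) and Yme1l1 to 0.094 (0.094). In homozygotes against controls it turned Mff to 0.013 (0.013) and Mief1 to 0.0034 (0.0034), and in homozygotes against heterozygotes Mief1 to -0.0099 (-0.0073) and Yme1l1 to -0.043 (-0.043). Without the filter Mief1 was -0.00054 there. Without single libraries, the first comparison gave -0.013 to 0.070 for Mff, -0.048 to 0.0082 for Mfn1, -0.040 to 0.042 for Mfn2, -0.066 to 0.024 for Mief1 and -0.059 to 0.00092 for Yme1l1. The second gave -0.032 to 0.060 for Fis1, -0.067 to 0.023 for Mff, -0.082 to 0.012 for Mfn2, -0.032 to 0.023 for Mief1, -0.0045 to 0.041 for Opa1 and -0.0043 to 0.064 for Yme1l1. The third gave -0.035 to 0.021 for Mfn1, -0.090 to 0.012 for Mfn2, -0.029 to 0.060 for Mief1 and -0.047 to 0.12 for Oma1. The fission minus fusion difference ranged from -0.014 to 0.071 in the first comparison, with the lowest value when heterozygote replicate 2 was left out, and from -0.037 to 0.021 in the second. In the third the fission median was below the fusion median in every setting. These medians were -0.091 and -0.0035 without homozygote replicate 3, -0.080 and 0.012 without heterozygote replicate 3, and -0.015 and 0.055 without heterozygote replicate 2. An estimated GC and length trend, pools of animals, and 3 libraries per genotype limit what can be resolved, and cells without Cre contribute to every value.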
